A study of Mus musculus with 8 samples.

Results

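The replication-dependent histone genes were described here as the mouse genes whose symbol starts, or formerly started, with Hist1h, Hist2h, Hist3h or Hist4h. The annotation of the array now carries newer symbols such as H2bc4, so the genes were found through their Entrez identifiers and the older symbols in the RefSeq gene table. There were 70 such genes, of which 69 were in the annotation, 31 of them with a probe set of their own and 38 only through probe sets shared by several genes. Many of these genes are so alike in sequence that the array does not separate them, and a unit below is therefore 1 entry of the annotation, either 1 gene or a fixed set of genes, and where several probe sets measure it the brightest on average is used. In all, 58 probe sets, 27 of them for several genes, gave 40 histone units (31 of 1 gene and 9 of several) among 20737 annotated units. They comprised 5 units of H1, 8 of H2A, 13 of H2B, 4 of H3 and 9 of H4, and 1 unit shared by an H2B gene and an H1 gene.

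The samples were thymus lobes of C57BL/6NTac mice, with 1 array per mouse. The spaceflight group held 4 mice, 8 weeks of age, that spent 13 days on the space shuttle. The ground-control group held 4 mice of matching age and sex, kept in the same type of animal enclosure module, so that the housing hardware was shared by both groups. Launch, landing and weightlessness cannot be told apart in this design.

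Replication-dependent histones package newly made DNA, and their genes are transcribed mainly in S phase, when the cell copies its genome. Their mRNAs lack introns and in most cases end in a stem-loop, bound by the stem-loop binding protein Slbp, in place of a poly(A) tail. H2A, H2B, H3 and H4 form the nucleosome core, H1 binds the DNA that enters and leaves it, and the young thymus, in which immature T cells divide rapidly, is a tissue in which these genes are active.

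The genes of the classes differ in their promoters, and 5 promoters are shown because they belong to classes described below or carry the elements typical of them. RefSeq promoter windows (GRCm38.p6) reach from 250 bases before to 50 bases after the start of a gene, and 62 of the 70 genes had one, with 63 windows in all. Each line below gives the 160 bases before the start, with matches on either strand to 5 strings in capitals: the octamer ATTTGCAT, the CCAAT box CCAAT, the TATA box TATAAA, the H1 box AAACACA and the string GGTCC of H4 promoters. The regions are chr13:23683960-23684119 on the minus strand (H2ac6), chr3:96269540-96269699 on the plus strand (H2bc18), chr13:21780626-21780785 on the minus strand (H1f5), chr13:23551669-23551828 on the minus strand (H4c6) and chr13:23698459-23698618 on the minus strand (H4c3).
H2ac6: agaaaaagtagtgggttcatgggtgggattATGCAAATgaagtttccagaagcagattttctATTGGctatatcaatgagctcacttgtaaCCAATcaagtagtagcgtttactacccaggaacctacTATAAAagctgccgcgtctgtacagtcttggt
H2bc18: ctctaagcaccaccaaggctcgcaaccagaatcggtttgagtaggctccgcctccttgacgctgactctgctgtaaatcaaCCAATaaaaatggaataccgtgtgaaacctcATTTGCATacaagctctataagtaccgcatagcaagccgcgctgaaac
H1f5: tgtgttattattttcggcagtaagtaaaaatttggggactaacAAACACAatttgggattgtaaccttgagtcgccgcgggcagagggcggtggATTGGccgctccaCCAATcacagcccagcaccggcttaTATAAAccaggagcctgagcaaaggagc
H4c6: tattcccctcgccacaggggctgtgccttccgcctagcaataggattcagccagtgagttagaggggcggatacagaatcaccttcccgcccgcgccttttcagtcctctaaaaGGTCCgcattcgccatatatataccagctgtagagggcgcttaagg
H4c3: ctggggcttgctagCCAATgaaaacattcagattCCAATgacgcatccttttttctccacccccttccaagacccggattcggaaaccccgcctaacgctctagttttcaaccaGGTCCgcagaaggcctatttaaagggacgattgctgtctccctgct

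The octamer, a site for POU-domain factors, was present in 7 of 18 H2A windows and 7 of 17 H2B windows and in 0 of the H1, H3 and H4 windows, against 1.74% of all 32851 promoter windows of the same length. CCAAT was present in all 6 H1, 18 H2A, 17 H2B and 10 H3 windows but in 3 of 12 H4 windows, against 37.4% of all. GGTCC was present in 11 of 12 H4 windows, against 45.5% of all, and AAACACA in 5 of 6 H1 windows, against 7.18% of all. TATAAA was present in 35 of the 63 histone windows, against 13.6% of all. In 10 places an H2A gene and an H2B gene stood head to head, with starts 164 to 281 bases apart. The 2 windows of such a pair cover partly the same DNA, so 1 site can be counted in both classes. The octamer was in both windows of the pairs H2ac12 and H2bc12, H2ac8 and H2bc8, and H2ac1 and H2bc1. The H2A and H2B counts are therefore not independent. These matches describe the letters of the windows and were not set against the arrays.

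Spaceflight was compared with ground control to ask whether histone mRNA levels in the thymus differed after flight. No histone unit passed the test: 0 of 40 units had an adjusted p under 0.05 (limma, Benjamini-Hochberg over all 20737 units), where 16 units, or 0.0772%, did so over the whole annotation (0.0145% higher and 0.0627% lower). At an unadjusted p under 0.05 there were 2 of 40 histone units, H2bc4 and H3c15, both lower in spaceflight, while 10.8% of all units were at that level, 3.61% of all units higher and 7.21% lower. Both genes are also measured by brighter shared units. With each histone gene represented only by the brightest probe set that measures it, 0 of 19 histone units were at that p. The values of the groups did not overlap for 1 of 40 units (H2bc4), against 5.96% of all units (1.73% higher and 4.23% lower). The 95% interval of the difference lay within 1 log2 unit of 0, a 2-fold change, for 38 of 40 units (96.9% of all units) and within 0.5 log2 units for 27 of 40 (63.4% of all units). In a whole tissue, fewer dividing cells and less histone RNA per cell cannot be told apart.

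The differences, always spaceflight minus ground control on the log2 scale, were above 0 for 23 units and below 0 for 17. That is 57.5% above 0, against 47.2% of all units. Their median was 0.04, beside -0.01 over all units. Among units with a mean of at least 6 log2 units over the 8 arrays, the median was 0.05 for 29 histone units. It was -0.11 over all 11264 such units, so the brighter units as a whole lay lower in spaceflight. With each array centred on its 75th percentile the split was 32 above and 8 below 0, with each array centred on its median 27 and 13, and with quantile normalization repeated 25 and 15. With 1 probe set per histone gene it was 14 above and 5 below 0, with a median of 0.06. Over all 58 histone probe sets it was 29 and 29, with a median of 0.00 beside 0.01 over all probe sets. The 75th percentile centring moved the median of all units to 0.12 and that of the histone units to 0.17. Centring shifts every difference alike, so the distance between these medians stays at 0.05 by construction. Over the other settings this distance ran from -0.01 (without ground control 2) to 0.15 (units with a mean of at least 6). The median by class was 0.05 for H1, 0.07 for H2A, -0.01 for H2B, -0.16 for H3 and 0.13 for H4. The median of H2B had the other sign with either centring (0.03 and 0.12), and those of the other classes kept their signs under the 3 other scalings. That of H3 was only -0.03 with 75th percentile centring, with 2 units above and 2 below 0. Among units with a mean of at least 6, H3 had 1 unit, at -0.07.

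**Figure D1:**
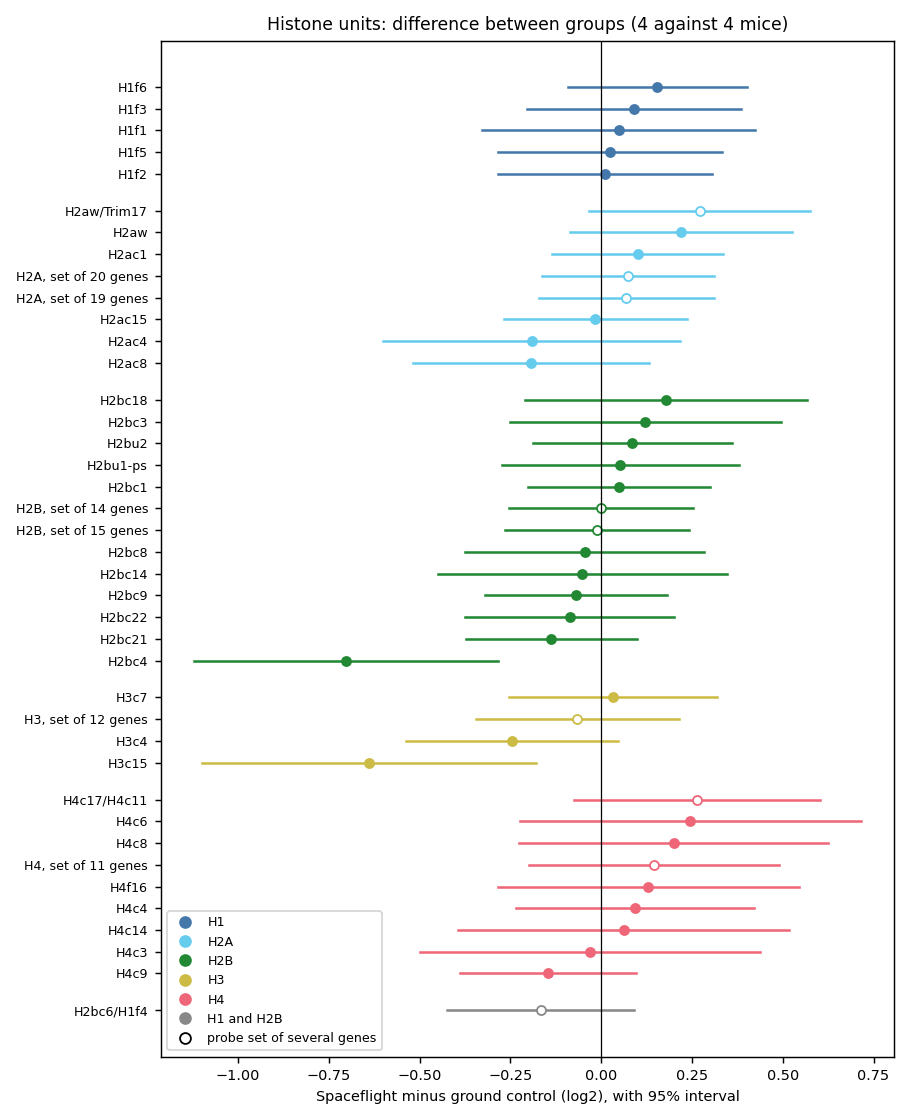
Difference between spaceflight and ground control (x axis, log2) for each of the 40 histone units (y axis), grouped by class; points are limma estimates, lines are 95% intervals and open points are probe sets of several genes. Most intervals span 0, and H2bc4 (-0.70) and H3c15 (-0.64) lie farthest from it.

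Linker histone H1 binds between nucleosomes. The differences of its 5 units were all above 0 and ran from 0.01 (H1f2) to 0.15 (H1f6). For H1f5, a main somatic H1, the ground controls read 11.81, 11.52, 11.54 and 11.75 and the flown mice 12.03, 11.71, 11.52 and 11.47. Flown mouse 1 was the highest and flown mouse 4 the lowest of the 8, so the ground controls lay within the range of the flown mice. The difference was 0.02 ± 0.14 (SE, n = 4 and 4; 95% interval -0.28 to 0.33; limma adjusted p = 0.952).

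H1f1, another somatic H1, read 10.93, 10.52, 10.65 and 10.95 in the ground controls and 11.19, 10.90, 10.37 and 10.79 in the flown mice. Its extremes, flown mice 1 and 3, again belonged to the same group. The difference was 0.05 (95% interval -0.33 to 0.42; limma adjusted p = 0.917). H1f3 differed by 0.09 (95% interval -0.20 to 0.38). The testis-specific H1f6 gave 4.34, 4.67, 4.63 and 4.56 against 4.73, 4.78, 4.75 and 4.56, a difference of 0.15 (limma adjusted p = 0.574), and its groups touched only through flown mouse 4. The probe set shared by H2bc6 and H1f4 differed by -0.17 (95% interval -0.42 to 0.09).

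H2A units were spread on both sides of 0, with 5 above and 3 below. The unit with most genes holds 18 of the listed genes together with the variants H2ax and H2aj, and an H3 gene, H3c4, is among the 18. It read 12.58, 12.35, 12.55 and 12.63 in the ground controls and 12.69, 12.67, 12.48 and 12.56 in the flown mice. Flown mice 1 and 2 were the highest and ground control 2 the lowest, and the other 5 values lay between them with no separation of the groups. The difference was 0.07 ± 0.11 (SE, n = 4 and 4; 95% interval -0.16 to 0.31; limma adjusted p = 0.787), and the related set of 19 genes gave 0.07 as well.

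H2aw, formerly Hist3h2a, lies outside the main cluster. Its ground controls read 9.06, 8.82, 8.68 and 8.98, and its flown mice 9.32, 9.09, 8.78 and 9.23. Flown mice 1, 2 and 4 lay above all ground controls, and flown mouse 3 lay among them. The difference was 0.22 ± 0.14 (SE; 95% interval -0.09 to 0.52; limma adjusted p = 0.537). A probe set that H2aw shares with the non-histone gene Trim17 gave 0.27 (95% interval -0.03 to 0.57; limma adjusted p = 0.481). The lowest H2A differences were those of H2ac8 (-0.19, with values of 3.02 to 3.84 over the 8 arrays) and H2ac4 (-0.19). The testis gene H2ac1 differed by 0.10 (limma adjusted p = 0.698).

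H2B held the unit of smallest p among the histones, H2bc4, formerly Hist1h2bc, which is among the histone genes known to give polyadenylated transcripts as well. Its ground controls read 9.15, 9.17, 9.30 and 8.88, and its flown mice 7.84, 8.80, 8.38 and 8.68. Every flown mouse was below every ground control, with flown mouse 1 the lowest. The means were 9.13 ± 0.17 and 8.42 ± 0.43 (SD, n = 4 each), a difference of -0.70 ± 0.19 (SE; 95% interval -1.12 to -0.28), or 1.63-fold lower in spaceflight (limma adjusted p = 0.286). It was -0.51 without flown mouse 1 and -0.38 without flown mice 1 and 3.

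Flown mouse 1 was also the lowest of the 8 arrays in the summed signal of 5 other cell types. On the log2 scale its sum was 11.50 for fat cell markers (12.21 to 12.65 in ground controls), 9.62 for muscle markers (11.09 to 12.02) and 11.96 for red cell markers (13.50 to 13.95). It was 10.23 for macrophage and dendritic cell markers (11.00 to 11.35) and 9.55 for B and plasma cell markers (9.75 to 10.36). The differences were below 0 for 7 of 8 fat, 9 of 9 muscle, 6 of 6 red cell, 9 of 10 macrophage and dendritic and 4 of 7 B and plasma cell markers. Over all 20737 units they were below 0 for 10949. Their part in the H2bc4 value was not tested.

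The remaining H2B units lay near 0. The probe sets for 14 H2B genes read 11.45, 11.32, 11.41 and 11.58 in the ground controls and 11.51, 11.62, 11.29 and 11.32 in the flown mice. Flown mice 3 and 4 were at the level of ground control 2, the lowest control, and flown mouse 2 above all controls. The difference was -0.00 ± 0.12 (SE; 95% interval -0.25 to 0.25; limma adjusted p = 0.998), and the set of 15 genes gave -0.01. Both sets include H2bc4, whose own probe set gave the value above. H2bc18, whose promoter is printed above, differed by 0.18 (95% interval -0.21 to 0.57), H2bc21 by -0.14 (95% interval -0.37 to 0.10) and the testis gene H2bc1 by 0.05. The other 7 units of this class ran from -0.09 (H2bc22) to 0.12 (H2bc3).

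H3 had 4 units, with 1 difference above 0 and 3 below. The probe sets for 12 H3 genes, which cover all 3 H3 genes that also have a probe set of their own, read 12.30, 12.21, 12.53 and 12.54 in the ground controls and 12.43, 12.52, 12.13 and 12.23 in the flown mice. The groups overlapped over most of their range. The difference was -0.07 ± 0.13 (SE; 95% interval -0.35 to 0.21; limma adjusted p = 0.839).

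H3c15, formerly Hist2h3c2, read 5.19, 4.37, 4.51 and 5.09 in the ground controls and 4.38, 3.74, 4.44 and 4.04 in the flown mice. Ground controls 1 and 4 stood above the other 6 mice, which overlapped. The means were 4.79 ± 0.41 and 4.15 ± 0.32 (SD, n = 4 each), and the difference was -0.64 ± 0.21 (SE; 95% interval -1.10 to -0.18), 1.56-fold lower in spaceflight (limma adjusted p = 0.363). Its mean was under 6 log2 units, so it was left out where only units with a mean of at least 6 were kept. H3c4 differed by -0.25 (95% interval -0.54 to 0.05; limma adjusted p = 0.495), and H3c7 by 0.03. H3c7 had a low signal, with means of 2.84 in ground controls and 2.87 in flown mice.

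H4 had 7 of 9 differences above 0. The set of 11 H4 genes includes the genes of most other H4 units, so these differences are not independent. With 1 probe set per histone gene H4 had 3 units, all above 0. The probe sets for 11 H4 genes read 11.65, 11.12, 11.63 and 11.63 in the ground controls and 11.83, 11.71, 11.31 and 11.77 in the flown mice. Ground control 2 and flown mouse 3 were low, and the other 3 flown mice were above the other 3 controls. The difference was 0.15 ± 0.16 (SE; 95% interval -0.20 to 0.49; limma adjusted p = 0.701).

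H4c6, whose promoter is printed above, showed the same low mice, with 9.90, 9.03, 9.71 and 9.80 in the ground controls and 10.18, 9.98, 9.33 and 9.93 in the flown mice. The difference was 0.25 (95% interval -0.22 to 0.72; limma adjusted p = 0.632). The probe set of H4c17 and H4c11 gave 0.26 (95% interval -0.08 to 0.60; limma adjusted p = 0.51) and H4c9 gave -0.15 (limma adjusted p = 0.585). For H4c14, at 10.77, 10.04, 11.04 and 11.08 in the ground controls and 10.84, 10.96, 10.53 and 10.85 in the flown mice, the difference was 0.06 (95% interval -0.39 to 0.52). H4c8, H4f16, H4c4 and H4c3 ran from -0.03 (H4c3) to 0.20 (H4c8). Ground control 2 was the lowest array for 6 of 9 H4 units and flown mouse 3 for the other 3. Without ground control 2 the H4 median was 0.02, with 5 of 9 differences above 0, and without flown mouse 3 it was 0.25.

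**Figure D2:**
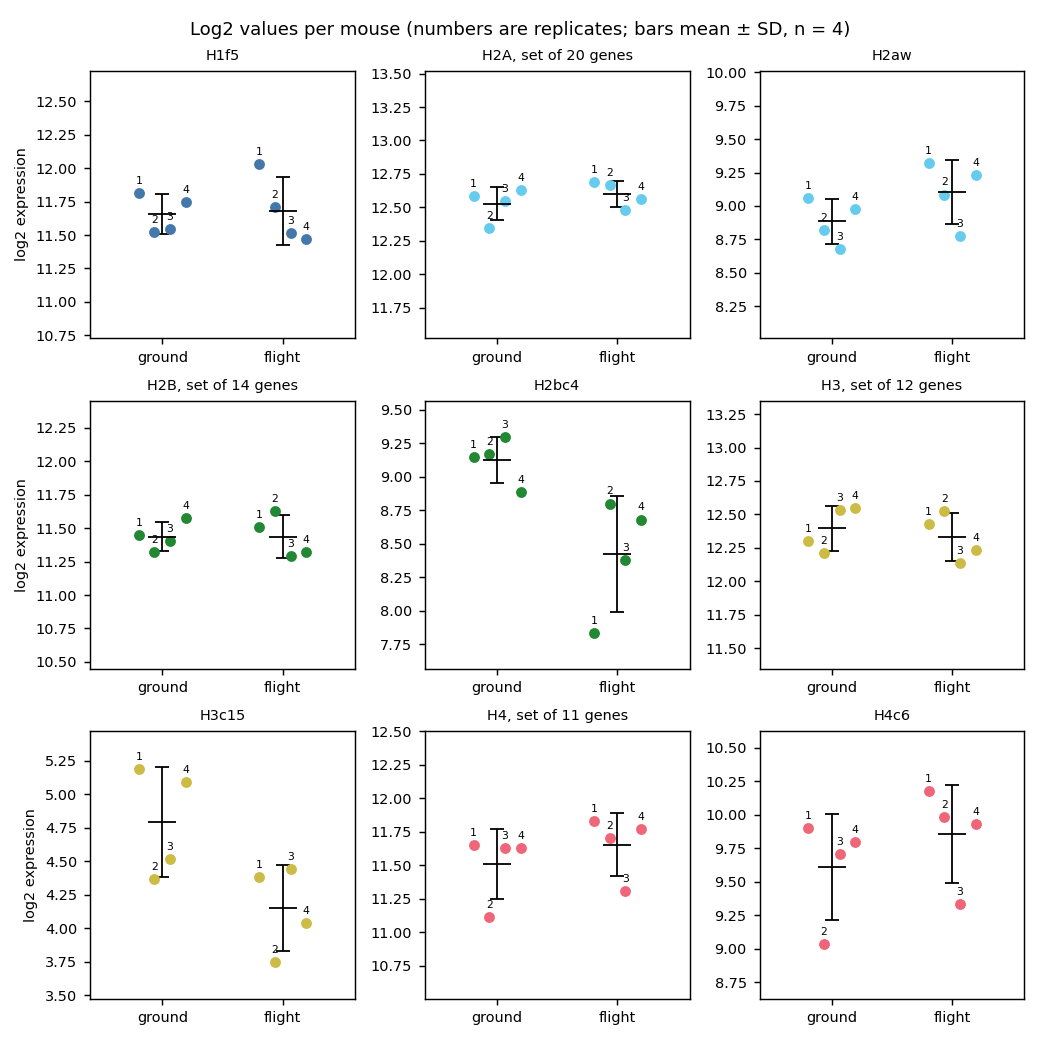
Log2 expression (y axis; each panel spans the same number of log2 units) of 9 histone units in the 4 ground-control and 4 flown mice (x axis); numbers mark replicates and bars give the mean and SD. The groups overlap in all panels but that of H2bc4, where the flown mice lie between 7.84 and 8.80 and the ground controls between 8.88 and 9.30.

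Units with several probe sets for the same genes gave nearly the same difference from each. The 10 probe sets of the H3 set ran from -0.08 to -0.05, the 5 of the H4 set from 0.14 to 0.15, the 4 of the set of 15 H2B genes from -0.01 to 0.01 and the 3 of the set of 14 from -0.02 to -0.00. These probe sets overlap in the genes they measure and are not independent replicates, and 4 of the 58 histone probe sets held values identical to those of another.

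Histone values varied between the mice of each group. Flown mouse 3 was the lowest of the 8 arrays for 16 of 40 histone units and the highest for 0, and ground control 2 was the lowest for 11. Flown mice 1 and 2 were the highest for 11 units each. Over all 20737 units, flown mouse 3 was the lowest for 4373 and the highest for 3271, and ground control 2 the lowest for 1110. Flown mice 1 and 2 were the highest for 3997 and 2120 of all units. As medians of each unit's deviation from its mean over the 8 arrays, the histone units stood at 0.11, -0.13, -0.03 and 0.10 in ground controls 1 to 4. They stood at 0.09, 0.11, -0.22 and 0.01 in flown mice 1 to 4. H4 in ground control 2 was farthest from 0, at -0.48.

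**Figure D3:**
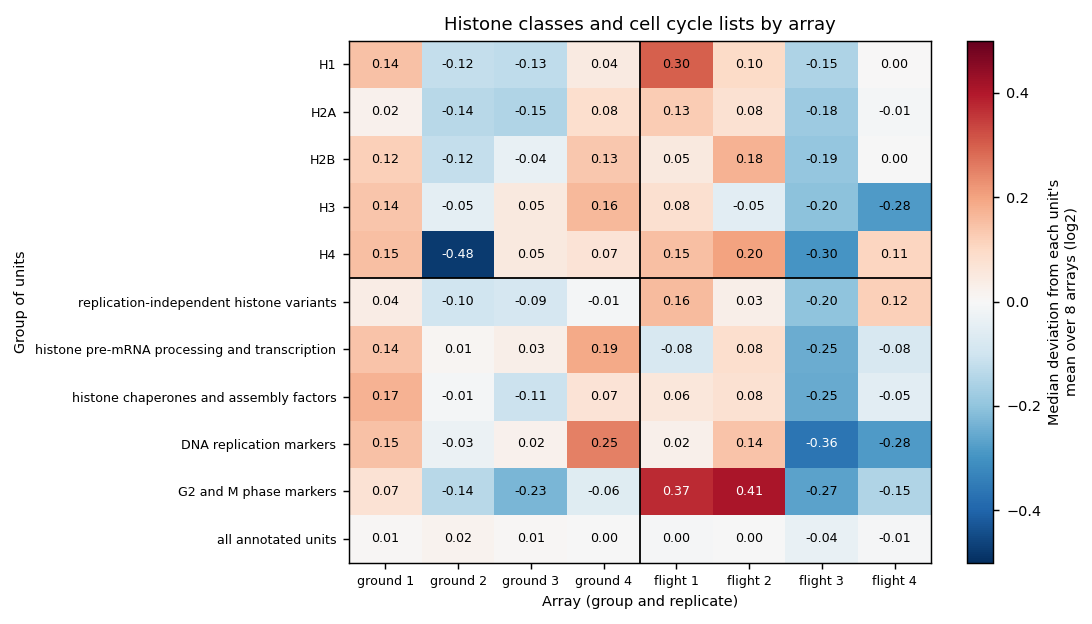
Median deviation from each unit's mean over the 8 arrays (colour and number, log2) for the histone classes, related gene lists and all units (rows) in each array (columns). Flown mouse 3 is below 0 in every class and list, and H4 in ground control 2 is the lowest cell at -0.48.

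Flown mouse 3 was also lowest for the DNA replication markers, whose median deviations were 0.15, -0.03, 0.02 and 0.25 in ground controls 1 to 4 and 0.02, 0.14, -0.36 and -0.28 in flown mice 1 to 4. Flown mouse 4 was at 0.01 for the histone units and at -0.28 for the replication markers. Markers of G2 and mitosis stood at 0.07, -0.14, -0.23 and -0.06 in the ground controls and at 0.37, 0.41, -0.27 and -0.15 in the flown mice, and flown mice 1 and 2 were the highest for these markers.

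Genes that make, process or place histones, and cell cycle markers, were measured in the same fit, and 0 units of each of these 5 lists were called. Beside the counts below, 47.2% of all units had a difference above 0. An unadjusted p under 0.05 was found for 10.8% of all units, 3.61% higher and 7.21% lower. Over all units with a mean of at least 6, the median difference was -0.11. Among 27 genes of histone transcription and pre-mRNA processing, 23 differences were below 0 and 4 above, with a median of -0.18. Of these genes, 5 had an unadjusted p under 0.05, all lower. The list includes the more general cell cycle genes E2f1, Cdk2, Ccne1, Ccne2 and Ccna2, all with differences below 0. Slbp, which binds the histone stem-loop, read 8.96, 8.89, 8.96 and 9.22 in the ground controls and 8.68, 9.00, 8.23 and 8.54 in the flown mice. Flown mouse 2 lay among the controls and the other 3 below them, with a difference of -0.40 ± 0.16 (SE; limma adjusted p = 0.426). Ncbp2, a subunit of the nuclear cap-binding complex, read 8.37, 8.35, 8.18 and 8.32 against 7.71, 7.99, 7.75 and 7.93. Its groups did not overlap, and it differed by -0.46 ± 0.11 (SE; limma adjusted p = 0.206).

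Ccne2, a cyclin that drives entry into S phase, read 7.60, 7.09, 7.19 and 7.55 against 6.90, 6.95, 6.63 and 6.22, also without overlap, and differed by -0.68 ± 0.18 (SE; limma adjusted p = 0.272). Sympk, a scaffold of the 3′ end cleavage complex, differed by -0.34 (limma adjusted p = 0.365), and Npat, the transcriptional coactivator of histone genes, by -0.18 (limma adjusted p = 0.59). With each array centred on its 75th percentile, this list was split 16 below and 11 above 0, with a median of -0.05 and 2 genes at an unadjusted p under 0.05. The median was -0.10 with quantile normalization repeated, -0.11 without flown mouse 3 (20 below and 7 above 0, 3 genes at that p) and -0.09 without flown mice 1 and 3. The count at that p was 9 without flown mouse 2 and 3 without ground control 4.

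The replication-independent variants, which replace the S phase histones at other times, had 7 of 12 differences above 0 and a median of 0.11, and 2 had an unadjusted p under 0.05, both higher. They were Cenpa, the centromeric H3 variant (0.31, limma adjusted p = 0.452), and Hils1, a linker histone of spermatids (0.31, limma adjusted p = 0.46). Hils1 had a low signal, with means of 5.09 in ground controls and 5.40 in flown mice. Among the 8 variants with a mean of at least 6, 1 was at that p. H1f10 differed by 0.26, H2az1 by 0.11, H2ax by -0.10, H3f3a by -0.07 and the unit of H3f3b and Gm6485 by 0.10. H3f3a was also low, with means of 4.10 and 4.03. The median of the variants was 0.24, with 10 of 12 above 0, under 75th percentile centring. It was 0.04 without flown mouse 4, 0.05 without ground control 3 and 0.07 without ground control 2, and 0 variants were at an unadjusted p under 0.05 without flown mouse 1, ground control 2 or ground control 3.

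Histone chaperones and assembly factors had 16 of 25 differences below 0 and a median of -0.04, with 1 at an unadjusted p under 0.05, but this direction turned with the scaling. The split was 14 above and 11 below 0 (median 0.09) with 75th percentile centring and 13 above and 12 below (median 0.02) with quantile normalization repeated. Without flown mouse 3 it was also 13 above and 12 below (median 0.00), and without flown mouse 1 it was 6 above and 19 below (median -0.12). Mcm2, a helicase subunit that also carries histones at the replication fork, differed by -0.41 (limma adjusted p = 0.373), Rbbp4, a subunit of the assembly factor CAF-1, by -0.23 and the unit of Hjurp, the chaperone of Cenpa, by 0.22.

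DNA replication markers had 32 of 34 differences below 0, with a median of -0.21. An unadjusted p under 0.05 was found for 8 (23.5%), all lower, against 7.21% of all units lower at that p. Mcm3, a helicase subunit, read 8.70, 8.61, 8.79 and 9.01 against 8.51, 8.66, 7.83 and 8.06. Flown mice 3 and 4 were the lowest, and the difference was -0.52 ± 0.18 (SE; limma adjusted p = 0.381). Pole2 differed by -0.44 (limma adjusted p = 0.36) and Cdc6 by -0.42 (limma adjusted p = 0.423). Without flown mouse 3 the split was 22 below and 12 above 0 with a median of -0.15, and with 75th percentile centring it was 21 and 13 with a median of -0.08. The count at an unadjusted p under 0.05 was 0 with 75th percentile centring and 3 with median centring or repeated quantile normalization. Leaving out each mouse in turn, it ran from 2 (without flown mouse 3 or ground control 4) to 12 (without flown mouse 1 or 2).

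G2 and mitosis markers had 20 of 21 differences above 0, with a median of 0.16, and 1 (Ccnb2, a mitotic cyclin) had an unadjusted p under 0.05. Ccnb2 read 9.83, 9.55, 9.48 and 9.72 against 10.32, 10.37, 9.73 and 9.84. Flown mice 1 and 2 were above the other 6 mice, and the difference was 0.42 ± 0.16 (SE; limma adjusted p = 0.415). Cenpe differed by 0.39 and Kif2c by 0.31, both with an unadjusted p above 0.05. The list was split 14 above and 7 below 0 without flown mouse 2 (median 0.05) and 16 above and 5 below without flown mouse 1 (median 0.07). The median was 0.29 without flown mouse 3, without flown mouse 4 and with 75th percentile centring. At an unadjusted p under 0.05 there were 0 genes without flown mouse 1 or 2 or ground control 2 or 3, and 5 without flown mouse 3 or 4. The histone median of 0.04 thus lay between the median of the replication list and that of the mitotic list, a position that was not tested.

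**Figure D4:**
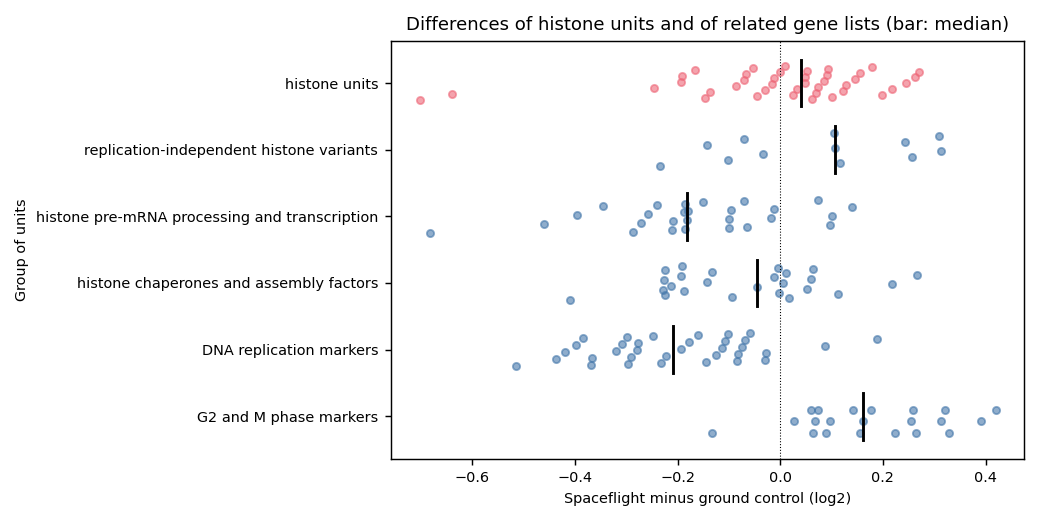
Differences between spaceflight and ground control (x axis, log2) for the 40 histone units and the members of 5 related gene lists (y axis; points are spread vertically for legibility, bars are medians). The histone units spread around 0, the DNA replication markers lie mostly below 0 (median -0.21) and the G2 and M phase markers mostly above (median 0.16).

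Flown mice 1 and 3 stood apart over the whole array, with interquartile ranges of 2.24 log2 units each against 2.56 to 2.85 on the other 6 arrays. The thymocyte markers, 12 of 15 measured, had log2 sums of 14.52 to 14.64 in the ground controls and 14.34 to 14.55 in the flown mice. All 12 thymocyte differences were below 0 (median -0.14), with 1 at an unadjusted p under 0.05. The groups did not overlap for 2 of 12, against 5.96% of all units (4.23% lower). With 75th percentile centring 8 of 12 were below 0 (median -0.01). The markers of thymic epithelium, 10 of 10 measured, had sums of 12.82 to 12.92 and 12.31 to 12.93. All 10 epithelial differences were below 0 (median -0.47). Of these, 6 had an unadjusted p under 0.05, against 7.21% of all units lower at that p. The groups did not overlap for 4 of the 10. Without flown mice 1 and 3, 8 of 12 thymocyte differences (median -0.04) and 8 of 10 epithelial differences (median -0.19) were below 0. The part of these markers in the histone values was not tested. Without flown mice 1 and 3 the histone units still gave 0 calls, with 31 of 40 differences above 0 and a median of 0.09.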

How the data were processed

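Thymus RNA of 8 mice was measured on Affymetrix arrays. Per the labels' protocols, Trizol RNA (6 µg) was made into biotinylated cRNA; how the cDNA was primed, which bears on mRNAs without a poly(A) tail, is not given in the sources used here. RMA corrects background and quantile-normalizes the arrays, which evens out differences in overall level between them. The deposited values are on a log2 scale, and the submitters' processing notes name RMA and limma; versions, build and filters were not stated there. Of 35557 rows, a run of 6614 identifiers without annotation, presumed controls, was left out; 23410 of the other 28943 were annotated and gave 20737 units.

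Groups were compared in R 4.3.3 with limma 3.58.1 (lmFit, eBayes, two-sided, all 8 arrays, no block), adjusted by Benjamini-Hochberg over all units and called under 0.05. On simulated data for this comparison (20737 units, 200 changed), 28%, 78%, 96% and 98% of changes of 0.5, 1, 1.5 and 2 log2 units were recovered, with 6 false among 156 calls. The simulated noise was normal and independent between arrays, whereas the real arrays were of unequal quality (limma array weights 0.48 to 2.17). With only 16 calls in the real data the adjusted cut is stricter, so these shares can overstate recovery for the histone units. The number of arrays limits the precision. No pair of arrays was identical. The members, gene lists and tests were chosen with earlier results of these data known. Named were, in each class, the 3 units of smallest p and the 2 of highest mean, the unit of most genes, testis members, the 3 units of smallest p in each list, and Slbp, Npat, H2az1, H2ax, H3f3a and H3f3b. Other units were named after their values were seen, as range ends or in a complete class. H1f0 was not matched. Of 7 strings searched in the promoters, 5 are marked; the strings and the promoters shown were chosen after the promoters had been examined. The unmarked strings, TATAAAAG and TTTGCAT, overlap the TATA box and the octamer and were in 4 and 15 of the 63 histone windows, against 1.7% and 4.63% of all.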

Additional observations from a re-analysis of the deposited data

Results flagged for a closer look

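In 122 groups of 4 values (histone units and named genes), the highest or lowest mouse was set against the others. In 6 groups its gap to the nearest other mouse, as a share of the range, exceeded Dixon's 95% critical value, and chance gives about 1 in 20, or 6.1 groups. Of these, 3 were H4 units with a low ground control 2, whose log2 value was 11.12 for the set of 11 H4 genes (others 11.63 to 11.65), 6.94 for H4c3 (others 7.56 to 7.62) and 7.80 for H4f16 (others 8.47 to 8.58). Ground control 3 was low for H2ac1, at 6.52 (others 6.71 to 6.74). Flown mouse 3 was low for H2bc14, at 9.23 (others 9.59 to 9.67). Ground control 1 was high for Rbbp4, at 10.50 (others 10.34 to 10.36). The groups share the same arrays, and the set of 11 H4 genes includes H4c3, so the 122 groups are not independent. The number of flags beside 6.1 therefore cannot show whether a flag arose by chance.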

How the results depend on the processing

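No histone unit and no member of the 5 related lists was called under any of 19 alternatives, and the smallest adjusted p of a histone unit in these limma fits was 0.157 (H2bc4, without spaceflight replicate 2). The number of units called over the whole annotation was 16, but 4 with 75th percentile centring and 10 without spaceflight replicates 1 and 3. Leaving out each mouse in turn gave 6 (without ground control 3) to 15 (without spaceflight replicate 2) calls. The median of H2A was 0.20 with 75th percentile centring, which shifted the median of all units as well. Leaving out each mouse in turn, the median ran from -0.03 to 0.11 for all histone units, from 0.01 to 0.12 for H1, from 0.01 to 0.11 for H2A, from -0.07 to 0.05 for H2B, from -0.22 to -0.10 for H3 and from 0.02 to 0.25 for H4. It was below 0 for all histone units without ground control 2 (-0.03) and without spaceflight replicate 2 (-0.02). With 1 gene per probe set the H2A median was -0.02. Of 827 values of named genes under the alternatives, 28 had the other sign and 0 were called, and 17 of the 24 named histone units had 1 sign throughout.

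With the replicate number as a block 14 units were called, and 0 histone units. The deviations of same-numbered mice correlated at 0.24, -0.33, -0.14 and 0.08, and 1 of 8 arrays correlated best with its own number. The labels do not say what the number stands for, and these correlations cannot show whether same-numbered mice were handled together.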
